A study of Caenorhabditis elegans with 53 samples.

Results

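RNA of neuronal nuclei from adult Caenorhabditis elegans with a lin-14 gain of function was set against that of control animals at L4, the last larval stage, to see how far the mutant adults resemble L4 neurons. The 11 libraries concerned, 5 of adult lin-14 gain of function (lin-14 gf) and 6 of L4 control, were chosen by their labels and are 11 of the 53 in the series. All of them were neuronal pull-downs (IP) from worms carrying otIs790, a nuclear tag made in all neurons (UPN::INTACT), so the controls carry the transgene too. The mutants were labelled lin-14(e1087) in one field and lin-14(ot1087) in another, were collected 57 ± 2 h after plating because they develop more slowly, and came from about 200000 animals per replicate. The L4 controls were collected at 40 ± 2 h. Controls of the mutants' own stage (7 adult libraries, 53 ± 2 h), with L1 (4 libraries, 8 ± 1 h) and L2 controls (5 libraries, 21 ± 1 h), are given beside them. Adult lin-4(e912) null libraries (4, also 57 ± 2 h) enter 1 comparison of distances. They also enter the scaling and the shared spread of the tests. So do 3 L1 lin-4 null libraries (8 ± 1 h) and 3 adult lin-28 gain-of-function libraries (53 ± 2 h), which are not compared here. The strain of the mutant is 1 line, the RNA comes from the whole nervous system, and fewer cells of a type and less RNA per cell cannot be told apart in such samples.

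In the heterochronic pathway the microRNA lin-4 appears in early larvae and represses lin-14, whose product, a nuclear transcription factor, sets early larval fates. In the classical gain-of-function alleles the sites that lin-4 pairs with are lost from the 3′ UTR of lin-14, and LIN-14 protein persists into stages where it is normally absent. Later steps include lin-28, the let-7 family of microRNAs, the nuclear receptor daf-12, and lin-29 with its cofactor mab-10, which act in the passage from larva to adult.

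Levels are the deposited size-adjusted values divided by 1 scaling factor per library, and fold changes are on the scale of log2(level + 1). A gene is called higher or lower where the adjusted p of limma, Benjamini-Hochberg over all 6325 genes tested, was under 0.05. Counts before size adjustment were used here for the controls only (9816934 to 27363082 reads in L4 and 14467748 to 53251753 in adult libraries), so the depth of the mutant libraries is unknown. The L4 libraries part into 2 sets whose origin the labels do not give. Libraries 1 to 3 had scaling factors of 0.839 to 0.878 and libraries 4 to 6 of 1.11 to 1.30, and libraries 5 and 6 had 45.5% and 43.2% of their reads on the genes of the table, against 22.5% to 33.3% in the others. The mutant libraries had factors of 0.95 to 1.43, with library 2 highest. Calls that end with either L4 set alone are given as such. All 40 pan-neuronal and synaptic genes were in the table, while markers of germline, body wall muscle and cell division had no gene in it. Of the genes tested, 98.6% had a higher share of reads in L4 IP than in L4 input, the RNA of all nuclei. The genes of the table are a subset, and how they were chosen is not given in the sources used here. This share therefore does not measure the purity of the pull-downs. The missing markers had reads in the raw counts of the IP libraries. Their summed CPM (counts scaled to library total) had medians in L4 IP of 4261, 15451 and 2887, in the order above. In L4 input they were 9427, 20663 and 5346, and in adult control IP 16646, 13060 and 6432. Their absence thus does not show that the pull-downs lack RNA of other cells.

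The level of lin-14 itself did not separate the groups. It was 2195, 1442, 2105, 2736 and 2159 in the 5 adult lin-14 gf libraries, against a lowest of 2224, a median of 2411 and a highest of 2700.4 in L4 control. The groups overlapped, 4 mutant libraries lying below every L4 library and library 4 above them all. The log2 fold change was -0.21 (SE 0.15, limma adjusted p = 0.413), and against adult control, whose median was 2314, it was -0.11 (SE 0.14, adjusted p = 0.632). The lin-14 gene (chromosome X, 11468435 to 11484202 in the files' coordinates, whose build is not given in the sources used here) therefore gives no check of the genotype by its RNA level.

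The mutant adults lay about as far from L4 as from adult control. Over all genes tested, the median root mean square (RMS) log2 difference between a mutant and a control library was 1.17 for L1, 1.03 for L2, 1.08 for L4 and 1.02 for adult control. Pairs of mutant libraries differed by 0.973 and pairs of L4 libraries by 0.981, so the distance to L4 was little above that between replicates. The 5 mutant libraries had median distances to L4 of 1.25, 1.11, 1.05, 0.939 and 1.01, and to adult control of 1.20, 1.18, 0.988, 0.853 and 0.907. Library 2 was nearer to L4 and the other 4 were nearer to adult control. The order turned with the L4 set: the distance was 1.17 to L4 libraries 1 to 3 and 0.918 to libraries 4 to 6, the second being below that to adult control. It also turned when 1 library was left out: the distances to L4 and to adult control were 0.978 and 0.985 without mutant library 1, 0.997 and 1.02 without L4 library 1, and 0.997 and 1.02 without L4 library 2. Distances between group means, in which the spread between libraries is smaller, were 0.895 for L1, 0.700 for L2, 0.649 for L4 and 0.644 for adult control, against 0.617 between adult and L4 control. To adult lin-4 null neurons, collected at the same hour as the mutants and unlike the adult controls, it was 0.442. Pairs share libraries, so these values carry no p.

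**Figure D1:**
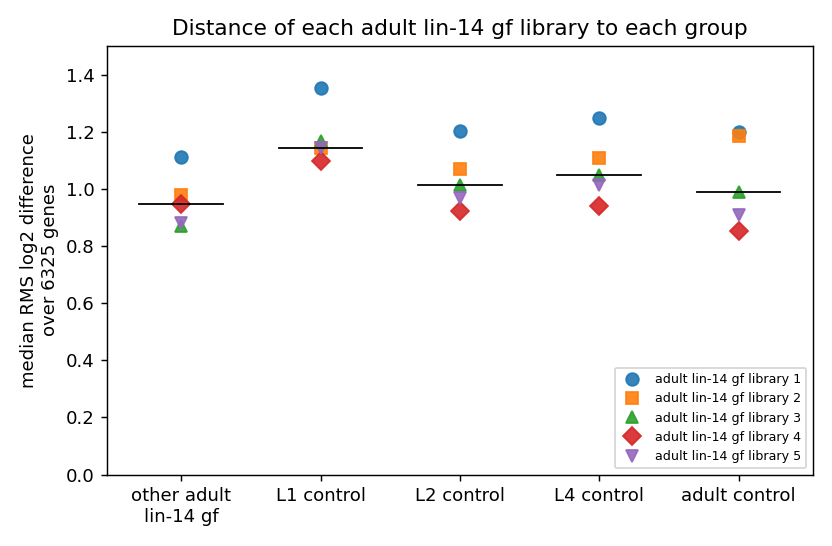
Median RMS log2 difference (vertical axis) of each of the 5 adult lin-14 gf libraries (symbols) to the other mutant libraries and to the libraries of each control stage, over 6325 genes; bars are the medians of the 5. Library 1 lies far from every group, at 1.25 from L4, and L4 and adult control are at similar distances.

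Against L4 control, 576 of the 6325 genes tested (9.11%) were called in adult lin-14 gf, 263 higher (4.16%) and 313 lower (4.95%). Over all genes the log2 fold change had a median of 0.01, and 1458 genes had an unadjusted p under 0.05. Every mutant library was above every L4 library in 123 genes (1.94%) and below in 116 (1.83%), together 3.78% of those tested. Against adult control, 1125 genes (17.8%) were called, 513 higher (8.11%) and 612 lower (9.68%), and between adult and L4 control 759 (12%), 423 higher (6.69%) and 336 lower (5.31%) in adults. These comparisons share libraries with the first. The counts rest on few libraries. The number called against L4 was 1255 with libraries 1 to 3 alone, 141 with libraries 4 to 6 alone, 317 without library 1, and 204 with scaling and fit on the 2 groups alone. Against adult control, 571 were called without mutant library 2. Without the added scaling factor the split against L4 was 333 higher and 189 lower, with a shift of 0.14 in the median of all genes. Of the 79 named genes called against L4, all 79 had the same sign with either L4 set, 68 were called with libraries 1 to 3 alone, 30 with libraries 4 to 6 alone, and 23 with both. Genes named for the size of their fold were picked among those whose 2 groups do not overlap. For them the lack of overlap given below is a condition of the choice and no further support.

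**Figure D2:**
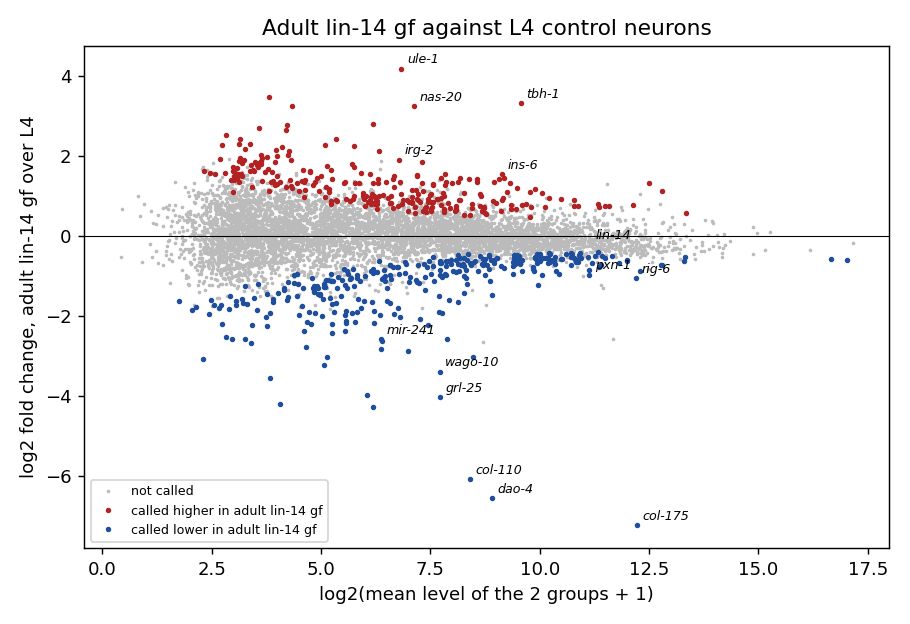
Log2 fold change of adult lin-14 gf over L4 control (vertical axis) against the log2 mean level of the 2 groups (horizontal axis) for the 6325 genes tested. The 263 red points are genes called higher and the 313 blue points genes called lower in adult lin-14 gf; the collagens col-175 and col-110 and dao-4 lie lowest, and ule-1 and tbh-1 highest among the labelled genes.

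Among the timing genes, none of the 15 tested was called higher and 5 (33.3%, against 4.95% of all genes) were called lower in mutant adults than in L4. These were daf-12, lin-4, mir-241 (a microRNA of the let-7 family), myrf-1 (a membrane-bound transcription factor that promotes lin-4 transcription) and alg-1 (an Argonaute protein of the microRNA pathway). The median log2 fold change of the list was -0.62. With L4 libraries 1 to 3 alone 8 were called lower, with libraries 4 to 6 alone 1, without the added scaling factor 2, and on the 2 groups alone 4. The count was 2 or 3 without mutant library 2, 3 or 5, or L4 library 1, 2, 3 or 4.

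The level of mir-241 (chromosome V, 14366173 to 14366268) was 46.8, 46.2, 7.63, 12.6 and 16.8 in adult lin-14 gf, against a lowest of 61.5, a median of 142 and a highest of 203 in L4 control, and a median of 13.6 in adult control. All mutant libraries lay below all L4 libraries (log2 fold change -2.58, SE 0.48, limma adjusted p = 0.000525), and the call held with either L4 set. Reads on a microRNA gene fall on its hairpin and do not measure the mature microRNA. In lin-4 too all mutant libraries lay below all L4 libraries, at 19.3, 14.7, 16.1, 8.42 and 14.9 in the mutants against 20.8 to 55.8 (median 40.8) in L4 and a median of 10.2 in adult control (-1.38, SE 0.42, adjusted p = 0.0309). That call was lost with L4 libraries 4 to 6 alone (adjusted p = 0.278) and without mutant library 2, 4 or 5 or L4 library 1, 2 or 3 (up to 0.0794). The exons of the lin-4 gene overlap another gene on the opposite strand, and strand use in counting is not given, so its reads cannot be assigned with certainty. In daf-12 the mutants stood at 2194, 1459, 1367, 1768 and 1236, against 2170.2 to 3594 (median 2762) in L4 and a median of 1706 in adult control (-0.85, SE 0.17, adjusted p = 0.00105). Mutant library 1 alone reached the L4 range, and with L4 libraries 4 to 6 alone the adjusted p was 0.0527. In these 3 genes the mutant median was nearer that of adult control than that of L4. In mir-241, however, mutant libraries 1 and 2 lay above every adult library (7.35 to 27), between the stages. None of the 3 was called against adult control (limma adjusted p = 0.537 for mir-241, 0.536 for lin-4 and 0.636 for daf-12), which does not show equal levels.

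In other timing genes the mutants stood near L4 or between the stages. The gene of the microRNA let-7 (chromosome X, 14744104 to 14744202) had levels of 167, 169, 94.2, 70.5 and 153 in adult lin-14 gf, against 136 to 375 (median 233) in L4 control and 1.29 to 9.72 (median 4.44) in adult control. Every mutant library was above every adult library, while 3 of the 5 lay within the L4 range. The log2 fold change was -0.84 against L4 (SE 0.54, limma adjusted p = 0.358) and 4.62 against adult control (SE 0.52, adjusted p = 3.6e-07). The level of myrf-1 was 8956, 3438, 2653, 7532 and 5516 in mutants, against 7117 to 10658 (median 8203) in L4 and 1499 to 2563 (median 2049) in adult control. It was called on both sides, at -0.73 against L4 (SE 0.23, adjusted p = 0.0383) and 1.34 against adults (SE 0.22, adjusted p = 7e-05), and the mutant libraries spread over the whole interval between the stages. The call against L4 was lost with L4 libraries 4 to 6 alone (adjusted p = 0.311) and without mutant library 2, 3 or 5 or L4 library 1, 2, 3 or 4 (up to 0.175). For mab-10, the cofactor of lin-29, the mutants had 3071, 1061, 768, 1739 and 2069, against 2541 to 4362 (median 3708) in L4 and 548 to 1237 (median 802) in adult control. Mutant libraries 2 and 3 lay within the adult range and library 1 within that of L4. Neither difference passed the test (-1.22 with adjusted p = 0.0589 against L4, and 0.94 with adjusted p = 0.0974 against adults). In these 3 genes mutant library 3 was the lowest or second lowest of the 5, so the libraries differ in how near they stand to L4.

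Of the remaining timing genes, alg-1 averaged 3263 ± 989 in mutants and 4928 ± 1134 in L4 (SD, n = 5 and 6; log2 fold change -0.62, SE 0.20, limma adjusted p = 0.0448), and its call was lost with L4 libraries 4 to 6 alone (adjusted p = 0.508). It was also lost without any 1 of 8 libraries, all but mutant library 4 and L4 libraries 5 and 6 (up to 0.184). The log2 fold changes of the others, none called, were -1.74 for mir-48, -0.44 for the F-box gene dre-1, -0.43 for ain-1, -0.36 for myrf-2, -0.26 for sea-2, -0.09 for lin-66 and 0.005 for the casein kinase gene kin-20, with limma adjusted p-values of 0.0709 to 0.992. The exons of sea-2 overlap another gene on the same strand. The sign was other with L4 libraries 4 to 6 alone for sea-2 and lin-66, and with libraries 1 to 3 alone for kin-20.

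**Figure D3:**
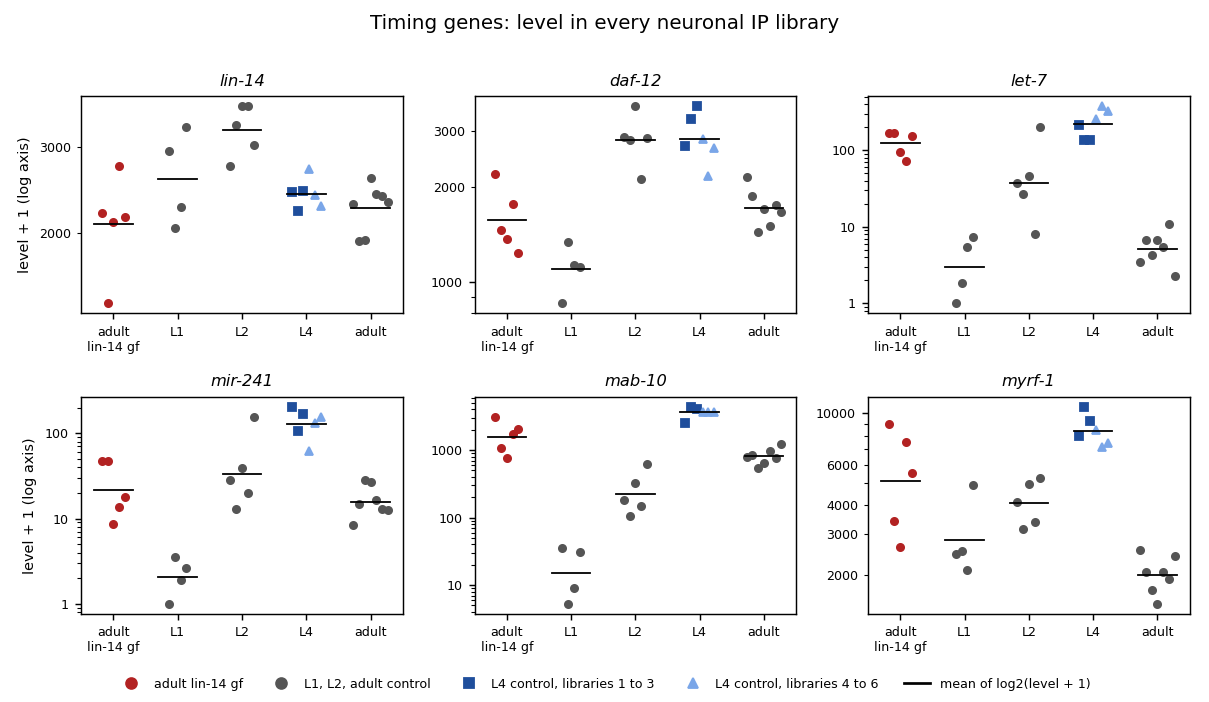
Level + 1 on a log axis (vertical) of 6 timing genes in every library of adult lin-14 gf and of L1, L2, L4 and adult control (horizontal); each point is 1 library, bars are means of log2(level + 1), and squares and triangles mark L4 libraries 1 to 3 and 4 to 6. Most mutant libraries lie near adults in daf-12 and mir-241, near L4 in let-7, and between the stages in mab-10 and myrf-1. In mir-241 all 5 lie below the L4 libraries, and libraries 1 and 2 lie above the adult libraries.

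The named genes with the highest fold changes over L4 were high in adult control too. The level of ule-1, a secreted protein of the uterine lumen, was 109.8, 107, 440.3, 93.7 and 327 in adult lin-14 gf, against 2.28 to 20.0 (median 13.7) in L4 control and a median of 159 in adult control. That of tbh-1, the enzyme that makes octopamine from tyramine, was 649, 1038, 3090.2, 482 and 1695, against 55.2 to 234 (median 121) in L4 and a median of 2052 in adults. For nas-20, an astacin metalloprotease, it was 131, 244, 484, 119 and 301, against 12.7 to 37.6 (median 22.9) in L4 and a median of 429 in adults. All mutant libraries were above all L4 libraries in the 3 genes, with libraries 3 and 5 highest. The log2 fold changes against L4 were 4.17 for ule-1 (SE 0.63), 3.31 for tbh-1 (SE 0.49) and 3.24 for nas-20 (SE 0.68), with limma adjusted p-values of 4.59e-05, 4.56e-05 and 0.00251. None of the 3 was called against adult control (log2 fold changes 0.12, -0.94 and -0.25). In adult control ule-1 and tbh-1 were not above the input, the RNA of all nuclei (log2 of IP over input -0.60 and -0.09), and the part of other cells in them was not tested. The exons of tbh-1 overlap a gene on the opposite strand.

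The F-box gene mfb-1 showed the same order, at 253, 240.2, 305, 309.5 and 289 in mutants, 119 to 165 (median 149.8) in L4 and 284 to 393 (median 332) in adult control (log2 fold change over L4 0.94, SE 0.16, limma adjusted p = 8.59e-05; over adult -0.25, adjusted p = 0.249). The chemoreceptor gene sri-40 averaged 131 in mutants, 27.3 in L4 and 305 in adult control (2.13 over L4, adjusted p = 0.000762; -1.23 against adults, adjusted p = 0.0248), and the F-box gene fbxa-24 213, 77.6 and 152 in the same order (1.50 over L4, adjusted p = 4.71e-05). All 6 of these genes were called with either L4 set.

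Neuropeptide genes that passed the test over all L4 libraries were higher in mutant adults than in L4. They comprised 3 of 30 FMRFamide-like peptide genes (flp, 10%), 6 of 41 other neuropeptide-like genes (nlp, 14.6%) and 5 of 24 insulin-like genes (ins, 20.8%), against 4.16% of all genes, with none called lower and median log2 fold changes of 0.30, 0.38 and 0.72. Against adult control 0, 1 and 4 of the same lists were called higher (0%, 2.44% and 16.7%, against 8.11% of all genes). In that comparison 4, 3 and 0 were called lower (13.3%, 7.32% and 0%, against 9.68% of all genes). With L4 libraries 4 to 6 alone 1, 0 and 2 were called higher, and with libraries 1 to 3 alone 5, 10 and 9, while 1 flp and 2 nlp genes were then called lower. Without the added scaling factor 5, 11 and 7 were called higher, and on the 2 groups alone 1, 3 and 3. One library moved the flp count to 1 (mutant library 1 or 4, or L4 library 1 or 4), 5 (L4 library 5) or 6 (mutant library 3), the nlp count to 10 (L4 library 6) and the ins count to 8 (L4 library 5 or 6).

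The insulin-like gene ins-6, which acts in the exit from the dauer stage, stood above both stages. Its level was 997, 634, 536, 729 and 1277 in adult lin-14 gf, against 163 to 363 (median 312) in L4 control and 249 to 646 (median 409) in adult control. All mutant libraries were above all L4 libraries, and 3 of the 5 (libraries 1, 4 and 5) above all adult libraries. The log2 fold change was 1.53 over L4 (SE 0.30, limma adjusted p = 0.00102) and 1.02 over adults (SE 0.29, adjusted p = 0.0135). For ins-4 the values were 237, 147, 204, 311 and 453, against 73.3 to 151 (median 94.9) in L4 and a median of 159 in adults (1.28 over L4, SE 0.30, adjusted p = 0.0053); library 2 alone lay within the L4 range. Both calls held with either L4 set. The gene ins-26 averaged 841 ± 458 in mutants and 370 ± 127 in L4 (1.09, adjusted p = 0.0153) and ins-10 averaged 49.1 ± 16.7 and 16.6 ± 19.2 (2.28, adjusted p = 0.00912; SD, n = 5 and 6), and neither was called with L4 libraries 4 to 6 alone (adjusted p = 0.0534 and 0.51). The call of ins-26 was also lost with libraries 1 to 3 alone (adjusted p = 0.0552) and without mutant library 5 or L4 library 1 (up to 0.0728).

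Among the flp genes, flp-9 had 10599, 5601, 9339, 9149 and 14173 in mutants, against 2872 to 6051 (median 4546) in L4 control and a median of 7765 in adult control (log2 fold change over L4 1.11, SE 0.22, limma adjusted p = 0.000957). Library 2 was the only mutant library within the L4 range, and the call held with either L4 set. The calls of flp-27 (1.09, adjusted p = 0.0367) and flp-5 (0.74, adjusted p = 0.0218) did not hold with libraries 4 to 6 alone (adjusted p = 0.335 and 0.08), nor for flp-27 without any 1 of 8 libraries (up to 0.101) and for flp-5 without mutant library 1 or 4 or L4 library 1 or 4 (up to 0.0888). Of the nlp list, pdf-1, a pigment dispersing factor peptide, averaged 8372 ± 3799.5 in mutants and 3159 ± 1098 in L4 (1.31, adjusted p = 0.0109), and nlp-57 336 ± 192 and 122 ± 61.2 (1.54, adjusted p = 0.00919). The gene nlp-5 averaged 195 ± 42.2 and 91.7 ± 37.5 (1.15, adjusted p = 0.00446), and nlp-1 1031 ± 203 and 605 ± 168 (0.80, adjusted p = 0.0063; SD, n = 5 and 6). None of these 4 was called with L4 libraries 4 to 6 alone, and none against adult control.

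The neuropeptide gene nlp-45, a known target of lin-14 in neurons, had 316, 70.0, 229.9, 431 and 521 in adult lin-14 gf, against 82.0 to 317 (median 222) in L4 control, 307 to 960.0 (median 512) in adult control and a median of 27.3 in L1 control. Mutant library 2 lay below every L4 library and libraries 4 and 5 above them all. Neither difference passed the test: the log2 fold change was 0.46 against L4 (SE 0.41, limma adjusted p = 0.541) and -0.95 against adults (SE 0.40, adjusted p = 0.0909).

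Chemoreceptor genes, the G protein-coupled receptors of sensory neurons, made up 674 of the genes tested of 906 in the table. Of these, 54 (8.01%, against 4.16% of all genes) were called higher in mutant adults than in L4 and 8 (1.19%, against 4.95%) lower, with a median log2 fold change of 0.39. Their summed level was 14556 to 22298 (median 16983) in adult lin-14 gf, against 9752 to 16016 (median 13372) in L4 control, 9624 to 13443 (median 11437) in adult control and 16068 to 18642 (median 18174) in L1 control; the mutants overlapped L4 and lay above all adult libraries. Against adult control 124 (18.4%, against 8.11% of all genes) were called higher and 7 (1.04%, against 9.68%) lower. The call against L4 depended on the L4 set, 139 being higher with libraries 1 to 3 alone and 7 with libraries 4 to 6 alone. With scaling and fit on the 2 groups alone 16 were higher and 0 lower. The count of higher genes was 25 without mutant library 2, 33 without 3, 34 without 5, and 28, 29 and 32 without L4 libraries 1, 2 and 3. That of lower genes was 3 and 4 without mutant libraries 1 and 3, and 1 and 5 without L4 libraries 1 and 3.

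By family, 11 of 110 srh genes (10%), 7 of 68 str genes (10.3%), 5 of 35 srw genes (14.3%) and 4 of 24 sra genes (16.7%) were called higher than L4, against 4.16% of all genes. None of 46 srz genes was, while against adult control 7 of the srz genes were (15.2%, against 8.11% of all genes). The genes with the highest fold changes were low in level. The level of srw-23 was 36.6, 52.5, 25.4, 18.9 and 22.4 in mutants and 0 to 7.24 (median 5.23) in L4, with no overlap (log2 fold change 2.77, SE 0.58, limma adjusted p = 0.00208; called with either L4 set). For srsx-9 it was 18.3, 15.4, 13.6, 4.21 and 3.74 against 0 to 2.71 (2.52, adjusted p = 0.00506). For srw-136 it was 14.2, 10.5, 12.7, 6.32 and 6.54 against 0 to 2.31 (2.26, adjusted p = 0.00156). For srsx-10 it was 28.5, 39.9, 54.3, 8.42 and 15.9 against 0 to 16.3 (2.63, adjusted p = 0.00245). These 3 were not called with L4 libraries 4 to 6 alone, and near-identical copies in such families may share reads.

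In the lists of guanylyl cyclases and ciliary transport genes the shares called against L4 were near or below those of all genes. Of 33 guanylyl cyclases, 1 was called higher (3.03%, against 4.16% of all genes) and 1 lower (3.03%, against 4.95%). These were gcy-13 (mean 27.6 in mutants and 5.06 in L4, log2 fold change 2.21, limma adjusted p = 0.00446), whose exons overlap a gene on the same strand, and gcy-12 (means 5475 and 8830, -0.74, adjusted p = 0.0126; adjusted p = 0.0686 without mutant library 2). Neither was called with L4 libraries 4 to 6 alone (adjusted p = 0.148 and 0.10). Against adult control 13 were higher (39.4%, against 8.11% of all genes) and 2 lower (6.06%, against 9.68%). The count of higher cyclases was 2 without mutant library 4 or 5 or L4 library 6, and that of lower ones 2 without mutant library 1 or L4 library 5. Of 61 ciliary transport genes 1 was called higher than L4 (1.64%) and none lower. It was che-11 of the intraflagellar transport complex (1019.8 ± 147 in mutants and 741 ± 76.5 in L4, SD, n = 5 and 6, log2 fold change 0.45, limma adjusted p = 0.0482). Against adult control 11 of the list were higher (18%, against 8.11% of all genes) and 1 lower (1.64%). The call of che-11 was lost with L4 libraries 1 to 3 alone (adjusted p = 0.0881), with libraries 4 to 6 alone (0.191) and when any 1 of 8 libraries was left out (up to 0.134). The difference between these comparisons was not tested.

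Some genes stood outside the range of both L4 and adult control. In all, 246 genes (3.89% of those tested) were called in the same direction against both, 114 higher (1.8%) and 132 lower (2.09%); the comparisons share the mutant libraries. The count was 490 with L4 libraries 1 to 3 alone, 71 with libraries 4 to 6 alone, 124 and 161 without mutant libraries 2 and 5, and 145 without L4 library 1. The infection response gene irg-2 (chromosome V, 4042389 to 4043483) had 129, 210.1, 243, 96.9 and 188 in adult lin-14 gf, against 31.7 to 57.2 (median 44.5) in L4 control and 45.5 to 83.2 (median 56.6) in adult control. Every mutant library was above every library of both stages (log2 fold change over L4 1.90, SE 0.30, limma adjusted p = 5.25e-05; over adult 1.44, SE 0.29, adjusted p = 0.000989), and the L1 median was 23.0. The call held with either L4 set.

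In several of these genes the mutant level was in or near the range of L1 and L2 control neurons. The gene odr-3, a G protein alpha subunit of olfactory neurons, had 634, 602, 392, 487 and 499.8 in mutants, against 251 to 377 (median 333) in L4 control, 222 to 343 (median 264) in adult control and 592 to 805 (median 672) in L1 control; in L2 control it was 415 to 629, and 3 of the 5 mutant libraries lay below every L1 library. The TRPV channel gene ocr-1 had 287, 431, 206, 224 and 206, against 98.6 to 169.7 (median 139.6) in L4, a median of 96.6 in adults 204 to 267 (median 232) in L1 and 159 to 248 in L2. The chemoreceptor gene sre-14 had 169, 208, 155, 100.0 and 121, against 42.3 to 95.5 (median 76.2) in L4, a median of 55.5 in adults 147 to 247 (median 164) in L1 and 101 to 142 in L2. All mutant libraries lay above all L4 libraries in the 3 genes, by log2 fold changes of 0.70 (SE 0.16) for odr-3, 0.92 (SE 0.22) for ocr-1 and 1.05 (SE 0.24) for sre-14, with limma adjusted p-values of 0.00478, 0.0053 and 0.00434. Against adult control they were 0.91, 1.23 and 1.36 (adjusted p = 0.000141, 0.000115 and 0.000115). With L4 libraries 4 to 6 alone none of the 3 was called (adjusted p = 0.184, 0.126 and 0.238), and ocr-1 has exons that overlap a gene on the opposite strand.

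The long non-coding RNA linc-56 averaged 542 in mutants, 221 in L4, 151 in adult control and 582 in L1 (1.34 over L4, SE 0.32, limma adjusted p = 0.00601; 1.76 over adult, adjusted p = 0.000177). Its call was lost with L4 libraries 4 to 6 alone (adjusted p = 0.33), and mutant library 2, at 1067, stood apart from the other 4 (376 to 493). The Ly-6-related gene lurp-3 averaged 181 in mutants, 88.5 in L4 and 96.9 in adult control (1.14 over L4, adjusted p = 0.0088), with an L1 mean of 74.4; it was not called with L4 libraries 4 to 6 alone (adjusted p = 0.443).

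**Figure D4:**
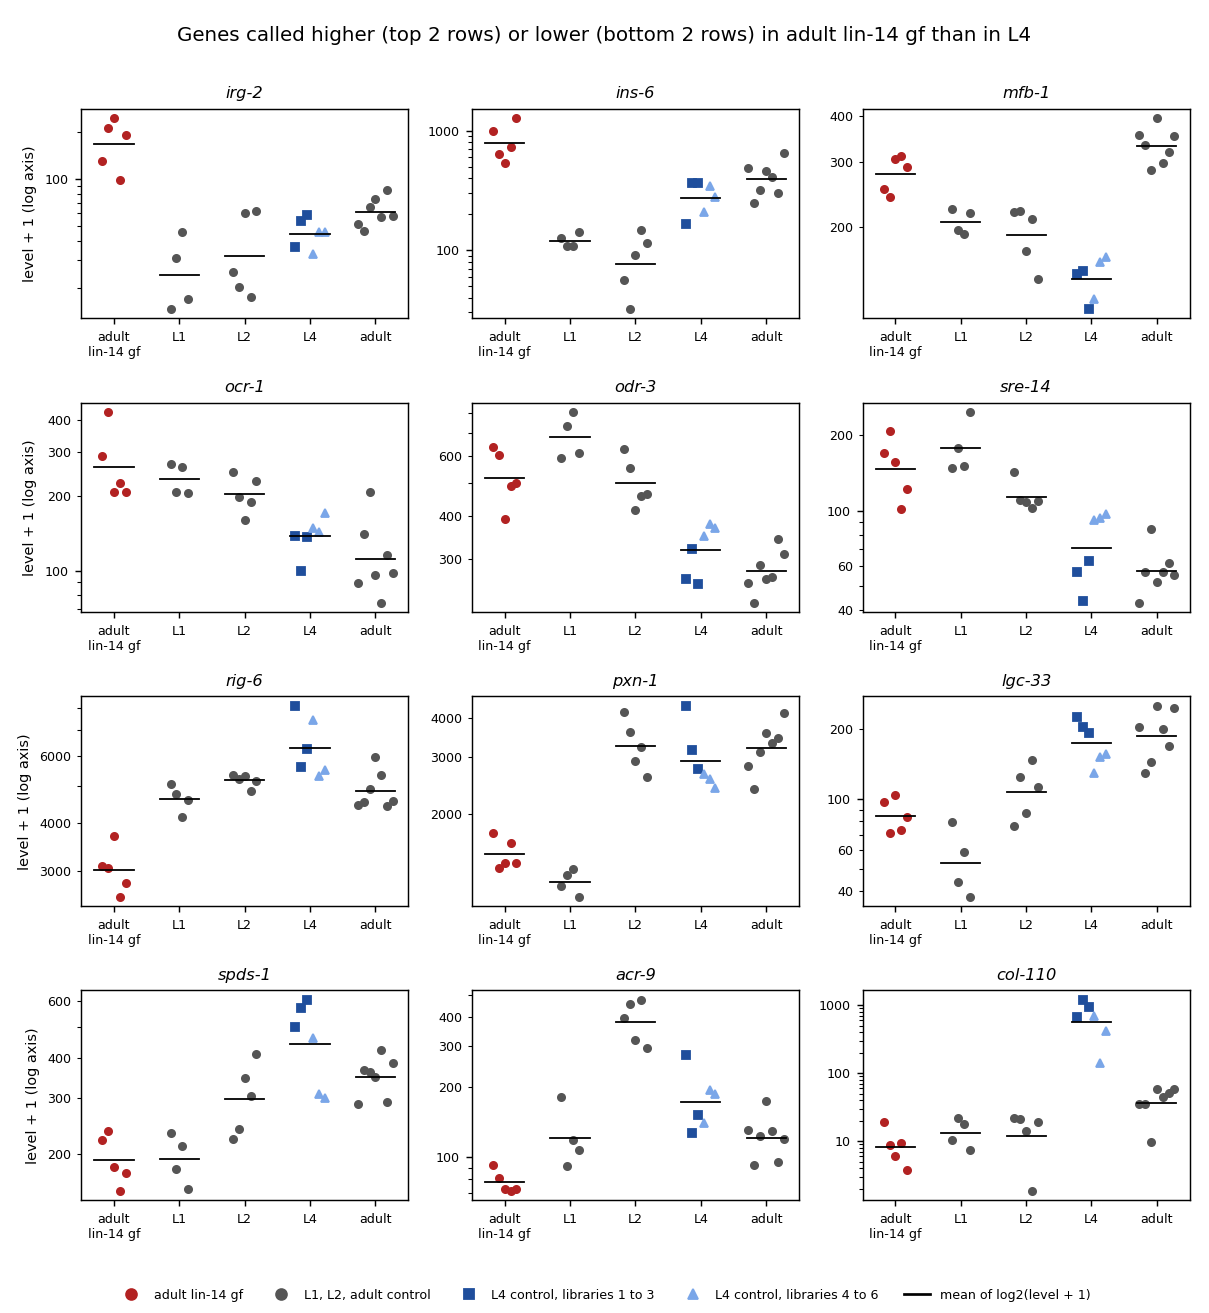
Level + 1 on a log axis (vertical) of 12 genes in every library of adult lin-14 gf and of L1, L2, L4 and adult control (horizontal); points are libraries, bars are means of log2(level + 1), and squares and triangles mark L4 libraries 1 to 3 and 4 to 6. The genes were picked among called genes whose 2 groups do not overlap, so in each panel the 5 mutant libraries lie on one side of the 6 L4 libraries. In odr-3, ocr-1, sre-14, lgc-33, spds-1 and col-110 the mutant libraries overlap those of L1 and those of L2.

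Genes lower than both stages included cell surface and matrix proteins. The level of rig-6, a contactin-like adhesion protein (chromosome II, 4798271 to 4812081), was 3077, 3053, 3698, 2561 and 2783 in adult lin-14 gf, against 5325 to 8103 (median 5933) in L4 control and 4439 to 5973 (median 4556) in adult control. All mutant libraries were below all libraries of both stages, and below those of L1 (4152 to 5055; log2 fold change against L4 -1.06, SE 0.14, limma adjusted p = 1.91e-06; against adult -0.69, SE 0.13, adjusted p = 0.000593). For the peroxidasin gene pxn-1 the levels were 1743, 1349, 1394, 1617 and 1394, against 2404 to 4350.4 (median 2711) in L4, 2388 to 4131 (median 3319) in adults and 1095 to 1337 (median 1230.4) in L1 (-0.97 against L4, SE 0.16, adjusted p = 9.76e-05; -1.11 against adult, SE 0.16, adjusted p = 6.52e-06). The spermidine synthase gene spds-1 had 221, 235, 181, 153 and 174, against 298 to 604 (median 479) in L4, a median of 359 in adults and of 194 in L1 (-1.21 against L4, SE 0.20, adjusted p = 7.51e-05). The groups did not overlap in these 3 genes, and each call held with either L4 set.

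The ligand-gated channel gene lgc-33 had 95.5, 70.0, 103, 72.6 and 82.2 in mutants, against 129 to 223 (median 174) in L4 control, a median of 200.0 in adult control and 36.9 to 78.4 (median 50.5) in L1 control (log2 fold change against L4 -1.03, SE 0.21, limma adjusted p = 0.00176). All mutant libraries were below all L4 libraries, though the call was lost with L4 libraries 4 to 6 alone (adjusted p = 0.101). The gene mnr-1, a menorin-type ligand in dendrite patterning, averaged 289 in mutants, 641 in L4, 900.4 in adult control and 248 in L1 (-1.13 against L4, adjusted p = 0.0225), and egas-1, a channel of the DEG/ENaC class, 52.2, 122, 197 and 92.4 (-1.14, adjusted p = 0.0153). Neither was called with L4 libraries 4 to 6 alone (adjusted p = 0.277 and 0.37); mnr-1 was also lost without mutant library 2 or L4 library 1 (up to 0.0778), and egas-1 without L4 library 1 (0.0523).

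In the receptor and channel lists of neuronal signalling more genes were called lower than higher over all L4 libraries. This did not hold for neuropeptide receptors and DEG/ENaC channels with every L4 set, nor for every list under every scaling. Of 82 ionotropic receptor genes 13 were lower (15.9%, against 4.95% of all genes) and 4 higher (4.88%, against 4.16%). Of 117 neuropeptide receptor genes 7 were lower (5.98%, near the share of all genes) and 1 higher, of 49 potassium channels 5 lower and 0 higher, of 18 DEG/ENaC channels 4 lower and 1 higher, and of 7 innexins 1 lower and 0 higher. The medians of these lists were -0.13, -0.06, -0.20, -0.09 and -0.31. With L4 libraries 4 to 6 alone the lower counts of the first 4 lists were 6, 2, 2 and 0, and the higher counts 0, 0, 0 and 1. With libraries 1 to 3 alone the lower counts were 15, 5, 8 and 4. With libraries 1 to 3 alone 10 neuropeptide receptors were higher, so their direction turned. Ionotropic receptors then had 8 higher, potassium channels 1 and DEG/ENaC channels 1. The lower counts were 8, 0, 0 and 2 without the added scaling factor, and 7, 0, 0 and 2 on the 2 groups alone. The higher counts were 4, 1, 0 and 2 without the added factor, and 1, 0, 0 and 0 on the 2 groups alone. Without L4 library 1 the counts of lower neuropeptide receptors, potassium channels and DEG/ENaC channels were each 1; without mutant library 3 the receptor count was 4, without mutant library 2 the potassium channel count was 2, and without any of mutant libraries 2 to 5 or L4 library 2 or 3 the DEG/ENaC count was 2. The count of higher DEG/ENaC channels was 2 without mutant library 3. The count of higher ionotropic receptors was 2 without any of mutant libraries 3 to 5 or L4 libraries 1 to 3.

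The nicotinic receptor subunit gene acr-9 was at 91.5, 80.5, 72.1, 70.5 and 71.9 in adult lin-14 gf, against 126 to 275 (median 169) in L4 control and a median of 122 in adult control. The groups did not overlap (log2 fold change -1.15, SE 0.20, limma adjusted p = 0.000181; called with either L4 set), though its exons overlap a gene on the opposite strand. The excitatory GABA receptor gene exp-1 had 104, 119, 176, 154 and 156, against 210.0 to 349 (median 272) in L4 and a median of 184 in adults (-0.97, SE 0.19, adjusted p = 0.000762), again with no overlap and called with either set. The gene lgc-36 averaged 254 in mutants and 143 in L4 (0.93, adjusted p = 0.0115; 0.429 with libraries 4 to 6 alone) and shares exons with a gene on the opposite strand.

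Of the channels, del-1 averaged 256 in mutants and 434 in L4 (log2 fold change -0.74, limma adjusted p = 0.00434), and asic-1 427 and 616 (-0.57, adjusted p = 0.0447). The gene egas-4 averaged 86.1 and 50.0 (0.89, adjusted p = 0.0269). Of the potassium channels, shw-3 averaged 262 and 419 (-0.68, adjusted p = 0.0122) and twk-40 415 and 621 (-0.56, adjusted p = 0.019). The others were twk-12, at 92.9 and 153 (-0.72, adjusted p = 0.0343), and egl-2, at 1431 and 2114 (-0.55, adjusted p = 0.0311). The innexin gene inx-18 averaged 63.5 and 128 (-1.08, adjusted p = 0.0467). With L4 libraries 4 to 6 alone, of these 8 twk-40 and twk-12 were still called, and these were the ones lost with libraries 1 to 3 alone (adjusted p = 0.0902 and 0.214). Leaving out 1 library ended the call of del-1 in no case, of shw-3 without mutant library 1 (adjusted p = 0.0606), of twk-40 without L4 library 1 (0.0524), and of egas-4 without mutant library 1 or L4 library 2 or 3 (up to 0.0956). It ended those of twk-12 and egl-2 without any 1 of 5 libraries (up to 0.154 and 0.11), of inx-18 without any 1 of 6 (up to 0.239) and of asic-1 without any 1 of 9 (up to 0.175). Among the neuropeptide receptors gnrr-1, related to receptors of gonadotropin-releasing hormone, averaged 138 and 240.0 (-0.75, adjusted p = 0.017), frpr-13 180 and 285 (-0.64, adjusted p = 0.0174) and frpr-1 61.0 and 110.4 (-0.85, adjusted p = 0.0296), while ckr-1, a cholecystokinin-type receptor, averaged 495 and 321 and did not overlap (0.63, adjusted p = 0.00711). With libraries 4 to 6 alone gnrr-1 was the one still called of these 4, and with libraries 1 to 3 alone gnrr-1 (adjusted p = 0.183) and frpr-1 (0.0912) were not called. The call of gnrr-1 was lost without L4 library 1 (adjusted p = 0.0523), of frpr-13 without mutant library 3 or L4 library 1 or 2 (up to 0.0558) and of frpr-1 without mutant library 1 or L4 library 1 or 5 (up to 0.142).

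In the adhesion and guidance list 5 of 56 genes were called lower (8.93%, against 4.95% of all genes) and 1 higher (1.79%, against 4.16%) against L4. The immunoglobulin gene zig-2 averaged 91.0 in mutants, 241 in L4, 177 in adult control and 6.21 in L1 (log2 fold change -1.35, limma adjusted p = 0.0077), and the cadherin gene cdh-8 435, 905, 296 and 349 in the same order (-0.96, adjusted p = 0.0163). The gene called higher was dma-1, a dendrite receptor of the leucine-rich repeat class, at 825 in mutants, 483 in L4 and 499.5 in adult control (0.76, adjusted p = 0.0122). The call of cdh-8 was lost without mutant library 2 or L4 library 1 (up to 0.0598). With L4 libraries 4 to 6 alone dma-1 was called (adjusted p = 0.0327), and zig-2 and cdh-8 were not (0.386 and 0.465). With libraries 1 to 3 alone dma-1 was not called (0.0578), so none of the 3 held with both sets. With L4 libraries 1 to 3 alone 20 were lower and with libraries 4 to 6 alone 1, and the count was 2 or 3 without mutant library 2 or 5 or L4 library 1, 2 or 3, and 10 without L4 library 5.

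In transcription factor lists the shares called were near or below those of all genes. Of 62 homeobox genes 1 was called lower (1.61%, against 4.95% of all genes) and none higher. It was the posterior Hox gene egl-5 (50.3 in mutants, against 88.9 in L4, log2 fold change -0.88, limma adjusted p = 0.0407). Of 92 nuclear hormone receptors 4 were called higher (4.35%, against 4.16% of all genes) and 2 lower (2.17%). The gene nhr-157 was at 85.0 in mutants and 42.7 in L4 (1.00, adjusted p = 0.0215) and nhr-159 at 84.5 and 47.8 (0.84, adjusted p = 0.0174). The gene nhr-27 stood at 3386 and 6724 (-0.89, adjusted p = 0.00514; 6770 in adult and 1905 in L1 control). None of these 4 genes was called with L4 libraries 4 to 6 alone (adjusted p = 0.23 to 0.461), and egl-5 was lost with libraries 1 to 3 alone too (0.0518). Leaving out 1 library ended the calls of egl-5 (any 1 of 7, up to 0.162), nhr-157 (mutant library 1 or 2 or L4 library 2, up to 0.076) and nhr-159 (mutant library 2 or L4 library 1 or 2, up to 0.0582). The count of higher nuclear hormone receptors was 2 without mutant library 1, 2 or 3 or L4 library 1 or 2, and 8 without L4 library 4; with L4 libraries 1 to 3 alone it was 10, and 0 with libraries 4 to 6 alone or on the 2 groups alone. Of 13 bHLH genes none was called, hif-1 having a log2 fold change of -0.28 (adjusted p = 0.441) and hlh-30 of -0.19 (adjusted p = 0.644).

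**Figure D5:**
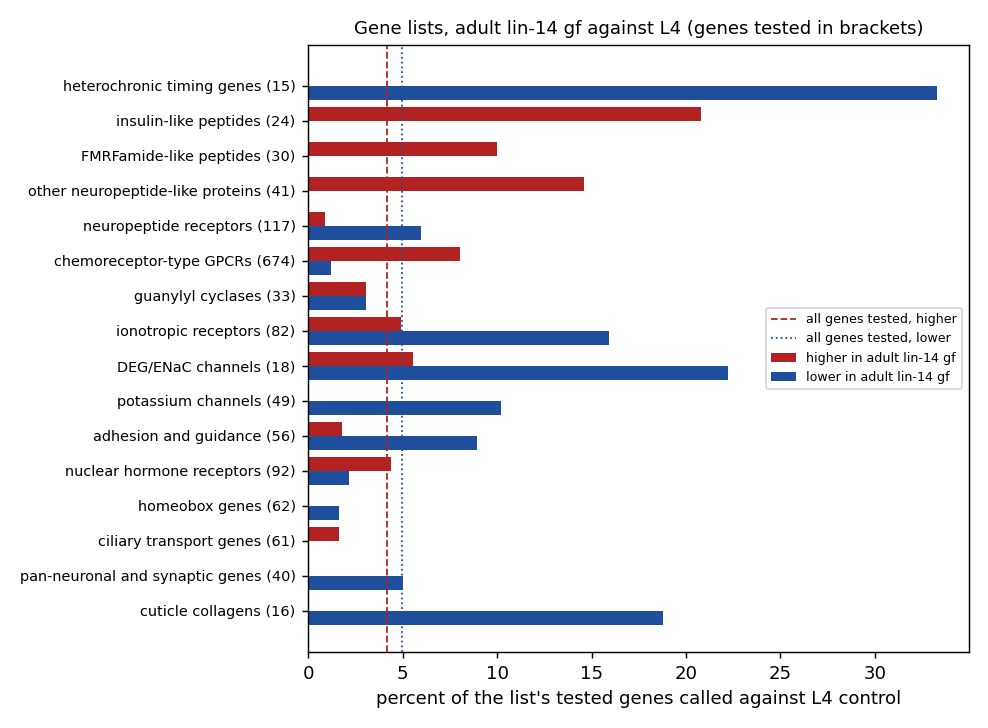
Percent of the tested genes of 16 lists (vertical axis, number tested in brackets) called higher (red) or lower (blue) in adult lin-14 gf than in L4 control (horizontal axis); the dashed and dotted lines are the 4.16% higher and 4.95% lower over all genes tested. Peptide and chemoreceptor lists lie above the line for higher genes, as do DEG/ENaC channels (5.56%), ionotropic receptors (4.88%) and nuclear hormone receptors (4.35%). Timing genes, ionotropic receptors, DEG/ENaC and potassium channels and collagens lie above that for lower genes. So do adhesion and guidance genes (8.93%), neuropeptide receptors (5.98%) and pan-neuronal genes (5%).

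Large falls against L4 were seen in cuticle collagens and a few other genes. The collagen gene col-175 had 14.2, 10.5, 79.7, 25.3 and 46.7 in adult lin-14 gf, against 425 to 25684 (median 7152) in L4 control and 44.3 to 2299 (median 195) in adult control (log2 fold change -7.24, SE 1.04, limma adjusted p = 4.15e-05). The collagen gene col-110 had 18.3, 7.70, 5.09, 8.42 and 2.80, against 139 to 1189.5 (median 679) in L4 and a median of 43.3 in adults (-6.09, SE 0.56, adjusted p = 4.8e-09). For dao-4 the levels were 2.03, 4.90, 5.09, 3.16 and 11.2, against 65.5 to 2380.3 (median 859) and a median of 30.3 (-6.56, SE 0.96, adjusted p = 3.55e-05). The Argonaute gene wago-10 had 23.4, 30.8, 14.4, 71.6 and 28.0, against 111 to 716 (median 369.8) in L4 and a median of 33.5 in adults (-3.40, SE 0.44, adjusted p = 1.91e-06). The groups did not overlap in these 4 genes and each call held with either L4 set. In L4 all 4 were lower in the IP than in the input (log2 of IP over input -0.38, -0.27, -0.45 and -0.84), and the part of other cells was not tested.

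Of 16 cuticle collagens tested, 3 were called lower (18.8%, against 4.95% of all genes) and none higher against L4 (median -1.04). The third was col-164, at 0 to 1.40 in mutants and 1.17 to 315 in L4. Its call was lost with L4 libraries 1 to 3 alone (limma adjusted p = 0.0972). The summed level of the 16 collagens was 365 to 801 (median 724) in adult lin-14 gf, 980 to 29301 (median 9519) in L4 control and 667 to 3244 (median 912) in adult control. The count was 8 with L4 libraries 1 to 3 alone and 7 and 5 without L4 libraries 5 and 6. Of 13 hedgehog-related genes 2 were lower (15.4%, against 4.95% of all genes) and 0 higher. These were grl-25 (0 to 5.09 in mutants and 9.54 to 2207 in L4) and grl-23 (7.70 to 28.8 and 19.4 to 3711), in both of which L4 library 6 was the highest. The level of grl-25 was 262 in L4 library 4 and 2207 in library 6, against 9.54 to 14.1 in the other 4. Its call was lost with L4 libraries 1 to 3 alone (limma adjusted p = 0.0502), and none of the list was called on the 2 groups alone. The exons of grl-25, grl-23 and col-164 overlap other genes on the opposite strand. The hedgehog acyltransferase-like gene hhat-2 averaged 53.7 in mutants and 113 in L4 with no overlap (-1.07, adjusted p = 0.00308 by limma).

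Some markers of other cells were called lower than in L4 too. Of 4 sperm markers tested 3 were lower (75%, against 4.95% of all genes) and none higher than in L4. They included spe-9 (16.6 in mutants and 57.8 in L4, log2 fold change -1.71, limma adjusted p = 0.00226) and spe-47 (31.1 and 110.4, -1.66, adjusted p = 0.000612). The third was spe-15, a myosin also used outside sperm (1249 and 2105, -0.73, adjusted p = 0.00275). Their summed level was 1078 to 1568 in mutants and 1568 to 3048 in L4. None of the 3 was called with L4 libraries 4 to 6 alone, and spe-47 has exons that overlap another gene. Of 10 pharyngeal muscle markers 1 was lower (10%, against 4.95% of all genes) and none higher, with sums of 22372 to 37394 in mutants and 17790 to 51783 in L4. The lower gene was pqn-18 (876 and 1290.3, -0.55, limma adjusted p = 0.0357). Its call was lost with L4 libraries 4 to 6 alone (adjusted p = 0.392) and without any 1 of 5 libraries (up to 0.12). Of 5 glia markers (kcc-3 and gly-18 at -0.27 and -0.09) and 2 intestine markers none was called; the sums were 137 to 322 in mutants and 227 to 306 in L4 for glia, and 112 to 387 and 191 to 308 for intestine. Of the genes called lower, 262 of 313 (83.7%) had a higher share of reads in L4 IP than in L4 input, against 98.6% of all genes tested and 263 of 263 called higher. In the table were 4 of the 80 sperm and 10 of the 88 pharyngeal muscle markers of the raw counts. For glia it held 5 of 15 and for intestine 2 of 76. These few cannot show the part of other cells. The summed CPM of the 76 intestine markers had a median of 16824 in L4 IP and 71069 in adult control IP. In L4 and adult input the medians were 28827 and 157393. Raw counts of the mutants were not used, and the part of other cells in the neuronal results was not tested.

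Of the 40 pan-neuronal and synaptic genes 2 were lower than in L4 (5%, near the 4.95% of all genes) and none higher (median -0.02). The liprin-alpha gene syd-2 averaged 1449 ± 294 in mutants and 2181 ± 407 in L4 with no overlap (SD, n = 5 and 6; log2 fold change -0.60, limma adjusted p = 0.00711), and the ankyrin gene unc-44 averaged 84509.5 and 123969 (-0.59, adjusted p = 0.025). With L4 libraries 4 to 6 alone neither was called (adjusted p = 0.264 and 0.433), and unc-44 was also lost without mutant library 2 or 3 or L4 library 1, 2 or 3 (up to 0.137). With libraries 1 to 3 alone 6 of the list were lower, and the count was 1 without mutant library 2 or 3 or L4 library 1, 2 or 3 and 4 without L4 library 5. Against adult control 8 were lower (20%, against 9.68% of all genes) and none higher. Of 17 genes of neurotransmitter synthesis and transport 1 was called higher than L4 (5.88%, against 4.16% of all genes), tbh-1 as above. Against adult control 6 of them were lower (35.3%, against 9.68%) and none higher. Of 52 long non-coding RNAs 1 was higher, linc-56, and 1 lower, linc-82 (1.92% each, below the shares of all genes). The level of linc-82 was 14.8 in mutants and 78.0 in L4 (-2.14, limma adjusted p = 0.00919, and 0.299 with libraries 4 to 6 alone). The count of higher long non-coding RNAs was 8 with L4 libraries 1 to 3 alone and 2 without mutant library 4 or L4 library 4 or 5. Of 32 globins 1 was lower, glb-30 (3.12%, against 4.95% of all genes). Its means were 80.4 in mutants and 161 in L4 (-0.92, limma adjusted p = 0.0342). The call of glb-30 held with libraries 4 to 6 alone and was lost with libraries 1 to 3 alone (0.273). It was also lost when any 1 of 8 libraries was left out (up to 0.0766). None was called of 5 polycystin and cwp genes (cwp-4 and cwp-5 at -0.10 and 0.23), 4 histones (his-35 and his-37 at 0.09 and 0.01), 2 heat shock genes and 1 ribosomal protein gene.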

How the data were processed

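Neuronal nuclei were pulled down from synchronised worms by an INTACT tag and their RNA was sequenced, per the labels' protocols. The deposited table used here holds read counts that the authors adjusted to a common library size per the labels and file name, treated as a score with no fixed unit, since each library sums to about the same total; its 7974 genes are a subset, 912 of them piRNA genes. Raw counts deposited per gene were used for the depth of the control libraries, for IP over input and for the summed CPM of marker genes. The submitters' processing notes name Subread, featureCounts and DESeq2 without versions, with genome build, strand use and filters not given in the sources used here. Each library was divided by 1 median-ratio size factor, and log2(level + 1) was fitted in limma 3.58.1 (R 4.3.3; trend and robust variance) over the 37 IP libraries in 8 groups, which share 1 spread, for the 6325 genes with a value of at least 10 in at least 3 libraries; 1649 genes fell below. P-values were adjusted by Benjamini-Hochberg over all genes tested, threshold 0.05. Nothing in the labels says that replicates came from separate cultures. The p-values therefore rest on a spread between libraries that may be technical. The procedure was tested on simulated data.

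The genes named are those of the timing list, the top 12 by fold in each direction among called genes whose groups do not overlap, with a group mean of at least 100, the top 6 in each direction outside both stages, up to 4 called examples per list (2 where none was called), and nlp-45. The members and lists were chosen with earlier results of these data known. Other scalings, pseudocounts, filters, variance models, replicate sets and left-out libraries were tried. Figures were drawn with matplotlib 3.10.9, and tables with pandas 2.3.3 and numpy 2.4.6.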

Additional observations from a re-analysis of the deposited data

Results flagged for a closer look

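Of 196 groups of libraries examined, 2 in adult lin-14 gf and 4 in L4 control held 1 library far from the rest by Dixon's test at the 95% level; chance does this in about 1 in 20 groups. In adult lin-14 gf, linc-56 stood at 1067 in library 2, against 376 to 493 in the others, and frpr-1 at 27.4 in library 1, against 59.5 to 79.0. In L4 control, mab-10 was at 2541 in library 1 (others 3682 to 4362), srw-136 at 0 in library 2 (others 1.14 to 2.31), asic-1 at 452 in library 4 (others 608 to 691), and fbxa-24 at 129.6 in library 6 (others 55.8 to 74.8).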

How the results depend on the processing

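The count of genes called against L4 was 204 with scaling and fit on the 2 groups alone, 1255 with L4 libraries 1 to 3 alone, 141 with libraries 4 to 6 alone, and 317 to 712 with 1 library left out. Against adult control it was 646 with adult libraries 1 to 3 alone and 571 to 1169 with 1 left out, and between adult and L4 control 488 with adult libraries 1 to 3 alone and 598 to 792 with 1 left out. Genes outside both stages numbered 127 with scaling and fit on adult lin-14 gf, L4 and adult control alone. They numbered 490 and 71 with L4 libraries 1 to 3 and 4 to 6 alone, 158 with adult libraries 1 to 3 alone, and 124 to 282 with 1 library left out. Without the added scaling factor 522, 1398, 796 and 235 genes were called in the 4 comparisons; the 1398 against adult control split into 1223 higher and 175 lower with a median of 0.39 over all genes, the 796 into 228 and 568 with a median of -0.24, and the 235 into 198 and 37. Pseudocounts of 0.5 and 10, no filter, and limma without trend gave 516 to 626 calls against L4. A pairing of the libraries by replicate number was not seen. Same-numbered mutant and L4 libraries correlated at 0.05, -0.25, -0.10, -0.09 and 0.14 in their deviations from the group means. Same-numbered mutant and adult control libraries correlated at 0.15, 0.23, 0.15, -0.09 and 0.07. Not every pair was thus above 0.1 in either, and not every library correlated best with its own number. These few values do not settle whether the numbers pair the libraries. With a replicate block 164 genes were called against L4, 905 against adult control and 372 between adult and L4 control.

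The distance of adult lin-14 gf was 0.785 to L1, 0.680 to L2, 0.708 to L4 and 0.675 to adult control with a pseudocount of 10, and 0.918 to L4 libraries 4 to 6 alone; Spearman's rho was 0.914, 0.937, 0.936 and 0.940. Leaving out 1 library gave 1.14 to 1.19 for L1, 1.00 to 1.07 for L2, 0.978 to 1.16 for L4 and 0.983 to 1.08 for adult control. The lin-14 log2 fold change was -0.31 to -0.07.

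Genes that changed sign were none of those called. Without the added scaling factor lin-66, cwp-4 and gly-18 stood at 0.051, 0.035 and 0.046. On the 2 groups alone kin-20 was at -0.0068, and with a replicate block at -0.10. With L4 libraries 1 to 3 alone kin-20 was at -0.33 and gly-18 at 0.11, and with libraries 4 to 6 alone lin-66 was at 0.29, sea-2 at 0.17, hif-1 at 0.13, hlh-30 at 0.17, cwp-4 at 0.17 and his-37 at -0.11. With 1 library left out cwp-4 ranged from -0.24 to 0.042, gly-18 from -0.25 to 0.084, his-35 from -0.011 to 0.26, his-37 from -0.14 to 0.12, kin-20 from -0.11 to 0.16 and lin-66 from -0.22 to 0.12. Of 97 named genes, the direction and side of the threshold held in 97 and 95 with pseudocounts of 0.5 and 10, 93 with no filter, 92 without trend, 79 without the added factor, 61 on the 2 groups alone and 46 with the block; the cause was not tested. The depth of the mutant libraries is unknown, so no limit of detection can be given for them.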
